A study of Homo sapiens with 2 samples.

Results

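The E2 enzymes examined here were the rows of the LRPPRC RIP-seq table whose gene name starts with UBE2, 34 of 16770 named genes. E2 enzymes stand in the middle of the ubiquitin cascade. An E1 enzyme activates ubiquitin, an E2 takes it up on a catalytic cysteine, and an E3 ligase brings the loaded E2 to the substrate. Most E2s carry ubiquitin, while a few carry a related modifier such as NEDD8 or ISG15. UBE2C and UBE2S are known for their work with the anaphase-promoting complex (APC/C), the ligase that ends mitosis. UBE2C starts ubiquitin chains on its substrates and UBE2S extends them.

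RNA was co-precipitated with an anti-LRPPRC antibody (2 μg) from lysates of untreated A549 cells, a lung adenocarcinoma epithelial line with the genotype given as WT. LRPPRC binds mRNA and is best known for keeping mitochondrial transcripts stable. Both libraries belong to this 1 condition, and the sources differ on whether the replicates are biological or technical, so the spread between them may be technical only. The values are FPKM, fragments scaled by transcript length and by the mapped fragments of each library, and summed to 196627 in replicate 1 and 194839 in replicate 2. Libraries of input RNA and of the IgG control were not used here, so a high level in the precipitate cannot be told apart from a high level of the mRNA in the cell. With 1 condition no test between groups was possible, and the order of genes is a description of these libraries. KRT8 (339 and 335 FPKM) and KRT18 (50.6 and 51.7), keratins of simple epithelium, were high, the epithelial adhesion gene EPCAM was low (0.402 and 0.459), the endothelial PECAM1 (0.194 and 0.191) and the fibroblast COL1A1 (0.712 and 0.681) were below 1, and the leukocyte gene PTPRC had no value here.

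The UBE2 genes whose levels the results turn on are shown first by the coding stretch around the cysteine codon that receives the modifier. In the GENCODE 44 transcripts, 20 of 33 coding UBE2 genes had consecutive codons for histidine, proline and asparagine followed within 12 codons by a cysteine codon. In 3 others, UBE2E1, UBE2E2 and UBE2E3, a cysteine codon stood in place of the proline codon, and in 10 neither arrangement was found. Among the 10 were UBE2V1 and UBE2V2, known as E2 variants without the catalytic cysteine. The others were UBE2J1, UBE2J2, UBE2O, UBE2Q1, UBE2Q2, UBE2QL1, UBE2W and UBE2Z, so the search does not tell the variants from the enzymes. UBE2Q1 and UBE2Q2 had the codons with cysteine in place of proline, but no cysteine codon was found within 12 codons after them. The stretches of 30 bases below are from GRCh38, 5′ to 3′ on the coding strand, and capitals mark the cysteine codon. They are shown for the APC/C pair, for the UBE2E genes and for the most alike pair of the UBE2D genes, because the levels within these families are compared below.
UBE2C, chr20:45815652-45815681, plus strand, codon 114: cagggtaacataTGCctggacatcctgaag
UBE2S, chr19:55404330-55404359, minus strand, codon 95: aatggcgagatcTGCgtcaacgtgctcaag
UBE2E3, chr2:181060707-181060736, plus strand, codon 145: cagggagtcatcTGTctggacatccttaaa
UBE2E1, chr3:23889154-23889183, plus strand, codon 131: caaggtgttattTGCttggacatattgaaa
UBE2E2, chr3:23532596-23532625, plus strand, codon 139: caaggtgtgatcTGTctggacatcttaaag
UBE2D3, chr4:102801488-102801517, minus strand, codon 85: aatggcagcattTGTctcgatattctaaga
UBE2D2, chr5:139614903-139614932, plus strand, codon 85: aatggcagcattTGTcttgatattctacga
UBE2D2 and UBE2D3 differed at 2 of these bases. UBE2E1 differed from UBE2E2 at 7 and from UBE2E3 at 9, and UBE2C from UBE2S at 12.

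UBE2 mRNAs covered a wide range of levels in LRPPRC RIP, from 0.0298 FPKM for UBE2QL1 to 197 for UBE2C. Of the 34 genes, 6 had a mean above FPKM 30, the threshold of the study, 13 lay between 10 and 30, 13 between 1 and 10, and 2 were below 1. The 6 genes above 30 were UBE2C, UBE2E3, UBE2E1, UBE2Q2, UBE2Z and UBE2V1. Each library gave at least 1 FPKM for 32 of the UBE2 genes and for 10441 named genes in all, the background used below. The 6 genes made up 18.8% of these 32, against 13.6% of the background, and 17.6% of all 34, against 8.46% of all named genes. The share of the 32 is near its background and that of the 34 is higher, and neither is a result about the family. Above FPKM 20 were 9 UBE2 genes (28.1% of the 32, background 21.1%). Above FPKM 50 were 5 (15.6%, background 6.89%), and above FPKM 100 were 2 (6.25%, background 2.48%). These shares were not tested. The median of the 32 genes was 10.6 FPKM, with quartiles of 6.75 and 27.7. Over all 10441 genes the median was 6.81 FPKM, with quartiles of 3.02 and 16.9. Between FPKM 1 and 10 lay 40.6% of the UBE2 genes and 61.5% of the background.

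**Figure D1:**
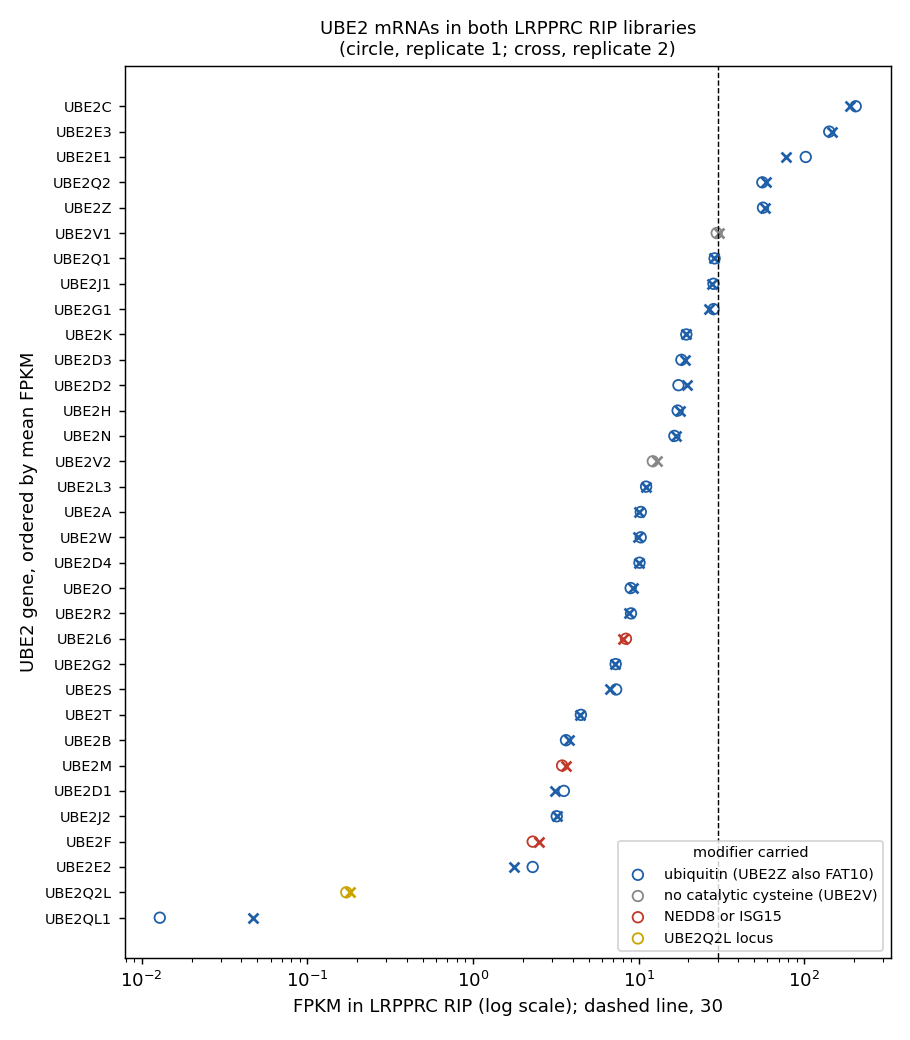
Levels of 33 UBE2 genes (y axis, in order of their mean) as FPKM (x axis, log scale), with circles for replicate 1, crosses for replicate 2, colours for the modifier carried and a dashed line at 30. UBE2C, UBE2E3 and UBE2E1 stand above the rest, UBE2V1 lies on the line, and UBE2Q2L and UBE2QL1 lie far below 1.

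**Figure D2:**
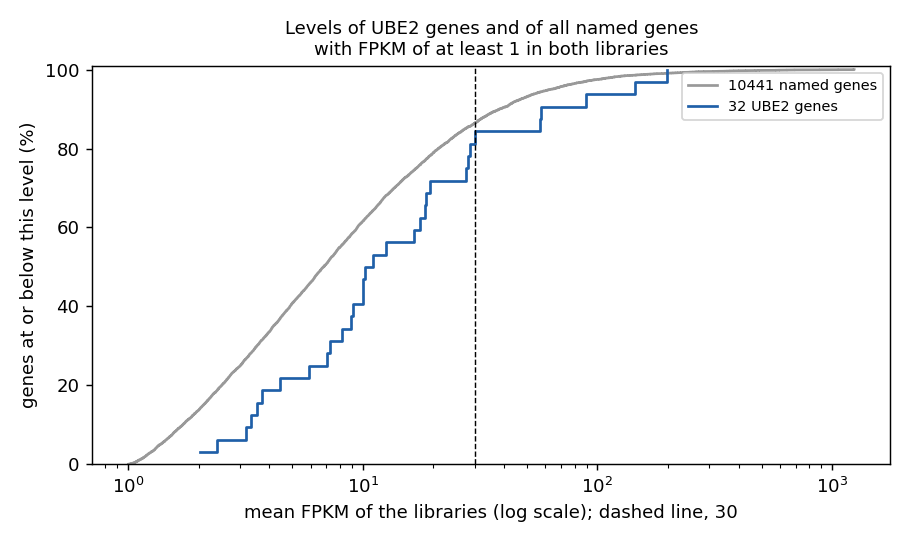
Cumulative share of genes (y axis, %) at or below each mean FPKM (x axis, log scale) for the 32 UBE2 genes at or above FPKM 1 in each library, in blue, and the 10441 background genes, in gray, with a dashed line at 30. The blue line has its median at 10.6 and the gray line at 6.81.

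A few genes held much of the family's summed FPKM. UBE2C, UBE2E3 and UBE2E1 together gave 50.5% of the summed UBE2 FPKM in replicate 1 and 48.1% in replicate 2. The whole family gave 0.452% of the FPKM of all genes in replicate 1 and 0.441% in replicate 2. UBE2C alone was 23.03% of the family in replicate 1 and 22.05% in replicate 2. These shares depend on the division by transcript length. Multiplied by the length of the canonical transcript, UBE2C ranked 5 among the UBE2 genes, and the shares on that scale were not computed.

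UBE2C, which starts chains on APC/C substrates such as cyclin B, had 205 FPKM in replicate 1 and 190 in replicate 2 (197 ± 10.6, SD, n = 2). It was the highest UBE2 gene in both libraries, and 0.584% of all named genes were above it. UBE2S, its partner in chain extension, had 7.32 and 6.75 FPKM (7.03 ± 0.403, SD, n = 2). The values of the pair did not overlap, and UBE2C was 27.9 times UBE2S in replicate 1 and 28.1 times in replicate 2. UBE2C lies on chromosome 20 of GRCh38 from 45812576 to 45816957, with 6 exons and a transcript of 777 bases, the shortest of the members with a mean FPKM of at least 1. UBE2S lies on chromosome 19 from 55399745 to 55407788, with 4 exons. Its canonical transcript in GENCODE 44 has 2559 bases, whereas the median of its coding transcripts is 743, so its FPKM depends on the transcript model used. Multiplied by the length of the canonical transcripts, the mean of UBE2C was 8.50 times that of UBE2S.

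UBE2C was also above each of 17 genes of the APC/C and its regulators, of which 3 were above FPKM 30. The highest of these were the activator CDC20, with 91.8 FPKM in replicate 1 and 87.0 in replicate 2, the scaffold subunit ANAPC1, with 62.0 and 71.1, ANAPC5, with 41.7 and 41.6, and CDC27, with 29.2 and 26.8. The level of UBE2C was 2.23 times that of CDC20 in replicate 1 and 2.18 times in replicate 2. These comparisons are of FPKM, which for UBE2C is divided by a short transcript of 777 bases. UBE2C and the APC/C genes were not compared after multiplication by transcript length, so its place above them may depend on length. UBE2S lay inside the range of the APC/C genes, with 10 of the 17 above it and 7 below. The lowest of the APC/C genes was ANAPC10, at 0.784 and 0.914 FPKM, and the median of the list was 12.3.

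The UBE2E genes, E2s with an extended N-terminus, held the next places. UBE2E3 had 142 FPKM in replicate 1 and 147 in replicate 2 (144 ± 3.69, SD, n = 2). UBE2E1 had 102 and 77.3 (89.7 ± 17.6, SD, n = 2), and UBE2E2 had 2.29 and 1.76 (2.03 ± 0.379, SD, n = 2). UBE2E3 and UBE2E1 were above FPKM 30 in both libraries, while UBE2E2 was the lowest UBE2 gene above FPKM 1. The coding sequences of UBE2E1 and UBE2E2 were 79.1% identical and those of UBE2E2 and UBE2E3 79.6%. Their levels differed, with UBE2E3 61.7 times UBE2E2 in replicate 1 and 83.5 times in replicate 2, and UBE2E1 44.52 and 43.98 times UBE2E2. After multiplication by transcript length the ratios of the means were 40.8 and 29.1. UBE2E1, on chromosome 3 from 23805955 to 23891640, and UBE2E2, from 23203020 to 23591794, are neighbours on the same strand. UBE2E1 varied more between the libraries than any other UBE2 gene above FPKM 1, with a coefficient of variation of 19.6%. UBE2E2 was close to it with 18.7%, at a far lower level, and both were lower in replicate 2. The spread of background genes at the level of UBE2E2 was not computed. Whether the neighbours shift together was not tested. The next was UBE2D2 with 8.49%. A ratio of the libraries at least as large as the 1.32 of UBE2E1 was seen in 20 of the 1418 named genes above FPKM 30, which is 1.41%. The 20 include UBE2E1 itself. UBE2E1 was picked as the most variable member above FPKM 1, so this share does not measure how unusual its spread is.

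**Figure D3:**
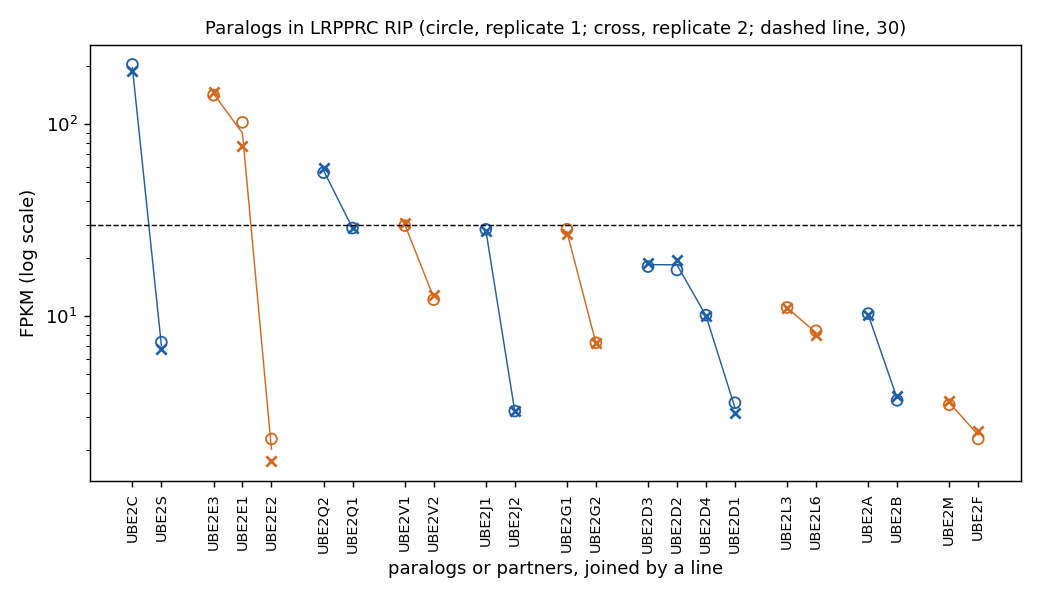
FPKM on a log scale (y axis) of the UBE2 genes with paralogs or partners (x axis), each subfamily joined by a line through the means, with circles for replicate 1, crosses for replicate 2 and a dashed line at 30. On this scale UBE2S is 28.0 times below UBE2C by the mean, and UBE2E2 is 44.3 times below UBE2E1, whereas FPKM multiplied by transcript length gives 8.50 and 29.1.

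UBE2D1 to UBE2D4 are E2s that work with many RING and HECT ligases. UBE2D3, at 18.1 FPKM in replicate 1 and 19.0 in replicate 2, and UBE2D2, at 17.4 and 19.6, overlapped, and their order changed between the libraries. Among 17 pairs within the 10 groups of paralogs or partners compared, this was the only one whose values overlapped. The share over pairs of background genes was not computed, so this count is no result about the paralogs. UBE2D4, at 10.1 and 10.0 FPKM, and UBE2D1, at 3.54 and 3.14, lay below them. UBE2D3 was 5.12 times UBE2D1 in replicate 1 and 6.04 times in replicate 2. UBE2D2 and UBE2D3 share 86.6% of their coding bases, the highest identity of any pair compared.

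UBE2Q2 and UBE2Z followed the UBE2E genes and could not be ranked against each other. UBE2Q2, a member of the UBE2Q branch, had 55.9 FPKM in replicate 1 and 58.8 in replicate 2, with UBE2Z, which receives ubiquitin or FAT10 from the E1 enzyme UBA6, at 56.4 and 58.0. UBE2Q1 was lower, with 28.8 and 28.7 FPKM, and UBE2Q2 was 1.94 times UBE2Q1 in replicate 1 and 2.05 times in replicate 2. UBE2QL1, at 0.0129 and 0.0468 FPKM, and UBE2Q2L, at 0.172 and 0.182, were the 2 members below 1. UBE2Q2L was matched through an older name to a locus that GENCODE 44 lists as the pseudogene UBE2Q2P16, and 82.6% of the 31-base words of its transcript occur elsewhere in the genome. The ratio of UBE2QL1 between the libraries, 3.64, is of values close to 0.

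UBE2N builds ubiquitin chains linked through lysine 63 together with the variants UBE2V1 or UBE2V2. UBE2V1 had 29.6 FPKM in replicate 1 and 30.6 in replicate 2, so it passed FPKM 30 in replicate 2 only. It was the member just above the threshold by mean (30.1), and UBE2Q1 (28.7) was the one just below. UBE2N had 16.4 and 16.8 FPKM, and UBE2V2 had 12.2 and 12.9. The order UBE2V1, UBE2N, UBE2V2 was the same in both libraries, with UBE2V1 at 1.80 and 1.82 times UBE2N and UBE2V2 at 0.741 and 0.766 times. The level of UBE2V1 is uncertain. The read-through gene TMEM189-UBE2V1, listed apart at 2.77 and 2.25 FPKM, carries the UBE2V1 name, and 49.9% of the 31-base words of the UBE2V1 transcript occur elsewhere in the genome. In the coding part this share was 78.6%.

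UBE2J1, anchored in the membrane of the endoplasmic reticulum for the degradation of misfolded proteins, had 28.3 FPKM in replicate 1 and 27.9 in replicate 2. Its relative UBE2J2 had 3.20 and 3.19, so UBE2J1 was 8.84 and 8.74 times higher, and 16.2 times by the mean after multiplication by transcript length. UBE2G2, an E2 of the same pathway, had 7.27 and 7.24. UBE2G1, which extends chains with cullin ligases, had 28.4 and 26.8 FPKM and overlapped UBE2J1. It was 3.90 times UBE2G2 in replicate 1 and 3.70 times in replicate 2. UBE2R2, the cullin E2 most like CDC34, had 8.999 and 8.791 FPKM, and CDC34 itself had 5.72 and 5.01.

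Among the E2s of single pathways, UBE2K, which forms chains linked through lysine 48, had 19.4 FPKM in replicate 1 and 19.3 in replicate 2. UBE2H, the E2 of the CTLH ligase, had 17.2 and 17.7. UBE2L3, which serves RBR and HECT ligases, had 11.10 and 11.01. These levels differed little between the libraries. The RAD6 homologues UBE2A and UBE2B, which act in DNA damage tolerance and on histone H2B, were unequal, with 10.3 and 10.1 FPKM for UBE2A and 3.64 and 3.82 for UBE2B. UBE2A was 2.83 times UBE2B in replicate 1 and 2.64 times in replicate 2, while 80.5% of their coding bases are identical. UBE2W, which ubiquitinates N-termini, had 10.3 and 9.87 FPKM and overlapped UBE2A and UBE2D4. UBE2O, a large enzyme with E2 and E3 activity, had 8.96 and 9.30 and overlapped UBE2R2. UBE2T, the E2 of the Fanconi anaemia pathway of crosslink repair, was low, with 4.48 and 4.45 FPKM.

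The E2s for NEDD8 and ISG15 were below FPKM 30. UBE2L6, the E2 of the interferon-induced modifier ISG15, had 8.39 FPKM in replicate 1 and 8.02 in replicate 2. Of the NEDD8 E2s, UBE2M had 3.45 and 3.62 and UBE2F had 2.29 and 2.52. Both values of UBE2M were above both values of UBE2F, but multiplication by the length of the canonical transcript turned the order, with UBE2M at 0.797 times UBE2F by the mean.

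The libraries gave similar levels for the UBE2 genes. The median absolute log2 ratio of the libraries was 0.05 over the 32 UBE2 genes with FPKM of at least 1 and 0.07 over the background. Over the 1418 background genes above FPKM 30 this ratio was 0.04. The median level was 10.6 FPKM for the UBE2 genes and 6.81 for the background, so the comparison is not matched for level. Of the 32, 0 differed by more than 1.5 times, against 1.52% of the background. The median coefficient of variation was 2.61% over the 32 and 3.19% over the background. It was below 5% for 25 of the 32. The background share below 5% was not computed, so this count is no result about the family. Replicate 1 was higher for 18 genes and replicate 2 for 14, and in the background replicate 1 was higher for 56.2%. Among the 31 neighbouring pairs in the order of the means, 10 overlapped, so the order within these pairs is not resolved. They include UBE2J1 and UBE2G1, UBE2D3, UBE2D2 and UBE2H, UBE2A, UBE2W and UBE2D4, UBE2G2 and UBE2S, and UBE2M, UBE2D1 and UBE2J2.

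The order of levels also depends on transcript length, by which FPKM is divided. The 6 members above FPKM 30 had canonical transcripts of 777 to 3084 bases, with a median of 1947 (GENCODE 44, which is later than the annotation of the study, on the same assembly). The 26 members between 1 and 30 had 878 to 8379 bases, with a median of 3050. Across the 32 genes Spearman's rho of mean FPKM and length was 0.11, and over 10370 background genes it was 0.13. These correlations are across genes of the same libraries, and length enters FPKM as its divisor. Multiplied by transcript length in kb, which approximates the share of fragments, UBE2E3 ranked 1 of 34 with 224, ahead of UBE2Z (176), UBE2Q2 (170), UBE2E1 (160) and UBE2C (153). With the canonical lengths, the same 5 genes thus held the first places on both scales, in another order. With these lengths the pair order was the same as for FPKM in 16 of the 17 pairs, the exception being UBE2M and UBE2F. Other transcript models can change both orders. The median length of the coding transcripts was 671 bases for UBE2Z (canonical 3084) and 711 for UBE2D3 (canonical 3729). The orders with that length were not computed.

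**Figure D4:**
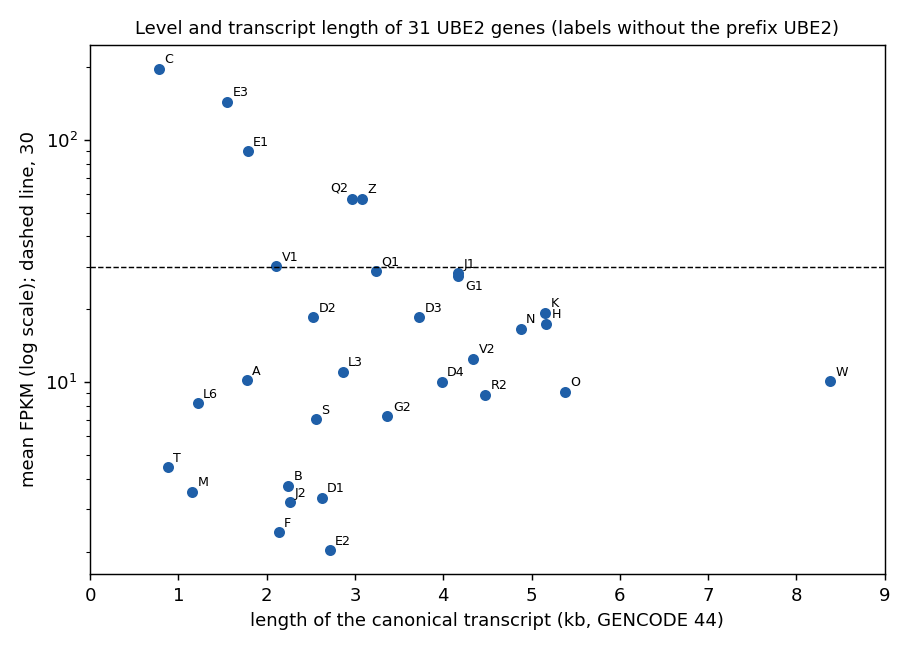
Mean FPKM on a log scale (y axis) and length of the canonical transcript in kb (x axis) of 31 UBE2 genes with a mean of at least 1, each point labelled without the prefix UBE2, with a dashed line at 30. UBE2C, at 777 bases, is the shortest and the highest, and the genes longer than 3084 bases are all below 30.

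Several UBE2 mRNAs resemble other parts of the genome, which makes their levels less certain. For 6 of the 32, more than 20% of the 31-base words of the transcript occur in GRCh38 outside the gene: UBE2V1 (49.9%), UBE2E3 (47.2%), UBE2M (35.5%), UBE2S (30.8%), UBE2D3 (22.1%) and UBE2L3 (21.2%). GENCODE 44 lists 5 pseudogenes under the name of UBE2C, 12 under UBE2Q2 and 16 under UBE2V1. For UBE2C the share was 13.1%. For 10 of the 32 it was 0, among them UBE2E1 and UBE2Z. Spearman's rho of this share and mean FPKM was 0.22 over the 32 genes. In the coding part alone the share was 78.0% for UBE2S and 9.07% for UBE2C, and 62.3% for UBE2E3 and 0 for UBE2E2. The ratios within these pairs are therefore uncertain too. The handling of such reads in the authors' alignment is not stated in the paper or labels, and the part of these copies in the levels was not tested.

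Of 90 genes that activate, receive or work beside the E2s, listed from textbook knowledge, 89 had a value and 17 were above FPKM 30. Of the 84 that were also in the background this was 20.2%, against 13.6% of the whole background. Among 10 E1 enzymes only UBA1, the main ubiquitin E1, was above 30, with 31.6 and 32.2 FPKM, followed by UBA3 (29.9 and 28.7) and NAE1 (16.5 and 16.9), the subunits of the NEDD8 E1, and UBA2 (16.0 and 16.4) of the SUMO E1. UBA6 had 16.2 and 16.0 FPKM, below its E2 UBE2Z, and UBA7, the ISG15 E1, had 0.494 and 0.433, below its E2 UBE2L6. UBA6 and UBA7 were chosen after their values were seen, as were CDC34 and ANAPC10 above. Of 10 genes for ubiquitin and related modifiers, 2 were above 30, SUMO3 (106 and 104) and UBB (57.2 and 54.4), with RPS27A (28.2 and 31.5) next. Of 8 proteins with an E2 fold but another name, BIRC6, a giant E2/E3 hybrid that blocks apoptosis, stood out with 60.4 and 61.6 FPKM, and ATG3 (8.53 and 8.12), CDC34 and UEVLD (5.39 and 5.31) were below 10.

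Genes of the ligases were set beside their E2s. Of 9 cullins and neddylation ligases 3 were above FPKM 30, CUL4B (130 and 123), CUL1 (47.8 and 46.8) and CUL3 (34.7 and 32.7), followed by CUL5 (10.8 and 10.9). UBE2M and UBE2F, which load NEDD8 for the cullins, lay inside the range of this list. RNF7 (2.86 and 3.68) overlapped UBE2M, and DCUN1D1 (2.14 and 2.15) and RBX1 (1.57 and 1.32) were below it. Of 6 SUMO ligases and partners 3 were above 30, RANBP2 (46.4 and 47.5), PIAS3 (47.4 and 46.0) and RANGAP1 (38.1 and 44.3), with PIAS1 at 14.6 and 13.7. In the Fanconi anaemia list of 3, FANCI (173 and 169) was above 30, and FANCD2 (17.9 and 17.6) and the ligase FANCL (5.21 and 5.53) were also above UBE2T. Of 5 RAD6 pathway ligases UBR2 (38.2 and 38.3) was above 30, with RNF40 (29.58 and 29.99), UBR1 (18.8 and 18.9) and RNF20 (18.0 and 19.4) above UBE2A and UBE2B. The fifth, RAD18 (9.09 and 8.63), was below UBE2A and above UBE2B. RAD18, RNF7, DCUN1D1 and RBX1 were also chosen after their values were seen.

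Of 5 ligases for chains linked through lysine 63, HLTF (51.8 and 49.1) was above UBE2V1, and SHPRH (12.49 and 11.98), RNF168 (10.8 and 11.1) and TRAF6 (5.35 and 5.29) were below UBE2N. Of 6 CTLH genes WDR26 (45.9 and 43.7) was above UBE2H, and MAEA (14.4 and 14.5), RMND5A (14.1 and 13.7) and ARMC8 (8.53 and 8.52) were below it. None of 5 endoplasmic reticulum ligase genes was above 30, and AUP1 (7.08 and 6.70), RNF139 (4.85 and 5.34) and SEL1L (3.22 and 3.03) were below UBE2J1. Of the RBR ligases ARIH2 (18.1 and 18.7) and RBCK1 (17.6 and 17.0) were above UBE2L3, and RNF31 (9.88 and 9.36) and ARIH1 (7.16 and 6.90) were below it. The list held 6 genes, of which 5 had a value and none was above 30.

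**Figure D5:**
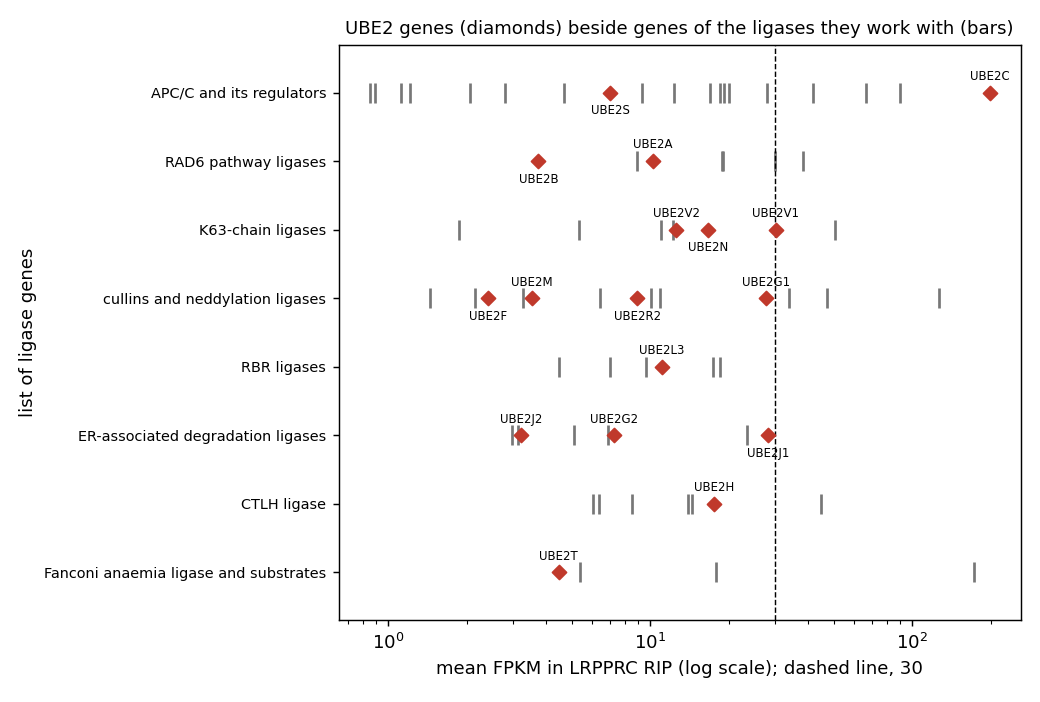
Mean FPKM (x axis, log scale) for genes in 8 lists of ligases (y axis, gray bars) and of the UBE2 genes that work with them (red diamonds), with a dashed line at 30. UBE2C, at 197, is to the right of all 17 APC/C genes. Most of the other UBE2 genes shown, among them UBE2T, UBE2M and UBE2F, are to the left of the highest genes of their lists. The levels are not multiplied by transcript length.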

How the data were processed

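The RNA that an LRPPRC antibody pulled down from A549 lysates was sequenced in 2 libraries. The authors deposited FPKM per gene and library, made with cutadapt 1.18, HISAT2 2.1.0 on GRCh38, SAMtools and StringTie 1.3.3b (submitters' processing notes), with an Ensembl annotation and replicates not pooled. Of 21262 rows, 16802 are named, 32 of which carry a name already listed (the higher row by mean was kept), and 4460 were added by assembly. Depth is unknown: of 5405 genes below 0.3 FPKM, at most 76 (1.41%) shared a log2 ratio within 0.02, so whole reads could not be recovered and counting intervals are not given.

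From these values, means, SDs, ranks, ratios and counts above FPKM 30 were computed. As background served the 10441 named genes at or above FPKM 1 in each library. Members, lists and alternatives were chosen with earlier results of these data known. All members with a mean of at least 1 are named, and the 4 highest genes of each related list, except for a few that are not reported here. Of 16770 named genes, 16463 and all 34 members matched GENCODE 44 (current or older symbol). Shared sequence is the share of 31-base words of the canonical transcript found, on either strand, elsewhere on the main chromosomes. Coding identity is from global alignment. Alternatives were thresholds of 20 and 50, each library alone, both libraries above the threshold, all named genes as background, summed repeated rows, multiplication by length, another length, pseudocounts of 0.1 and 1, no filter and equal summed FPKM. Tools were Biopython 1.88, numba 0.67.0, scipy 1.17.1, pandas 2.3.3, numpy 2.4.6 and matplotlib 3.10.9 on Python 3.11.15.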

Additional observations from a re-analysis of the deposited data

How the results depend on the processing

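No paired analysis was possible because both libraries belong to 1 condition. The count of 6 UBE2 genes above FPKM 30 was 5 to 6 with a single library and 5 with both libraries above the threshold. It was 9 at FPKM 20 (28.1%, background 21.1%) and 5 at FPKM 50 (15.6%, background 6.89%). The share against all named genes was 17.6% (background 8.46%). Spearman's rho of level and transcript length, 0.11, was -0.0403 with the median length of the coding transcripts, 0.10 to 0.11 with a single library and 0.22 without UBE2C, an alternative chosen after seeing the data, as were the single libraries for this relation and for the related lists (17 to 18 genes above FPKM 30). The ratio of UBE2M to UBE2F, 1.47, was 0.797 after multiplication by the length of the canonical transcript, by construction of that alternative. With replicate 2 alone, 16 of 17 pairs were in the order of the means, and with replicate 1 alone all 17 were. Of the other alternatives for single genes and pairs, 159 moved by no more than the spread between the libraries and 61 by more, without a change of direction in a pair that did not overlap. A level from 1 library cannot differ from the mean of both by more than this spread. Ratios of pairs from 1 library are bound in nearly the same way. Many of the 159 were therefore fixed in advance and are no test of the levels. The median absolute log2 ratio of the libraries was 0.05 to 0.06 under all 4 alternatives. Depth is unknown, so the precision of UBE2QL1 and UBE2Q2L cannot be stated.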
